A study of Mus musculus with 11 samples.

Results

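Of the 37991 genes in a table of mouse RNA sequencing values, 9 encode core parts of the Hedgehog signalling pathway and were chosen by gene symbol: Gli1, Gli2, Gli3, Ptch1, Smo, Hhip, Boc, Cdon and Gas1. All 9 were found. Values are in CPM, in which the reads of a gene are scaled to a common library total. A gene was tested where at least 2 libraries reached 1 CPM, which 13342 genes did. Gli1 stayed under that level in every library and 8 of the 9 were tested. The cells were neural stem cells from the frontal cortex of C57BL/6J mouse embryos (E14.5, in days of gestation). Libraries from cells in NeuroCult Proliferation Medium at day 0 form the group NSC (n = 3). The other libraries come from cells after 4 days in another medium: Astrocyte (DMEM, 1% fetal bovine serum and 1% of the supplement N-2, n = 3), Neuron (Neurobasal and 2% of the supplement B-27, n = 3) and Oligodendrocyte (the Neuron medium with 30 ng/mL of the thyroid hormone T3, n = 2). These names stand for the medium and do not say which cells a culture held, and no day 4 library from proliferation medium was analysed here, so that time and medium cannot be told apart in a comparison with NSC.

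In the Hedgehog pathway a secreted ligand (Sonic, Indian or Desert hedgehog) binds the receptor PTCH1, helped by the co-receptors BOC, CDON and GAS1. Without ligand, PTCH1 holds back the membrane protein SMO. With ligand, SMO enters the primary cilium and stops the processing of the transcription factors GLI2 and GLI3 into repressors. GLI2 acts mainly as an activator and GLI3 mainly as a repressor. GLI1, PTCH1 and HHIP are themselves transcribed in response to the signal: GLI1 amplifies it, while PTCH1 and the ligand-binding decoy HHIP dampen it. In the embryonic forebrain the pathway patterns ventral tissue, supports progenitor division and promotes the oligodendrocyte lineage.

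The libraries were estimated to hold between 49.28 and 66.16 M reads (M for mega). Neuron replicate 2 differed from the other Neuron libraries. It was the lowest of the 3 for 7 of the 9 Hedgehog genes (all but Smo and Gas1). The matching share of all genes was not computed. Mitochondrial genes made up 11.4% of its listed CPM, against 8.74% and 9.08%. Its deviations from the group mean correlated positively with those of NSC replicate 3 (r = 0.54) and Astrocyte replicate 3 (r = 0.48), and negatively with the other NSC and Astrocyte libraries. Each of these libraries had the fewest genes above 0 in its group (18058 in Neuron replicate 2, 18396 in NSC replicate 3 and 18307 in Astrocyte replicate 3). Results that change without Neuron replicate 2 are given with both values. Markers of several cell types were present together in each day 4 medium, and these bulk values do not show whether in the same or in different cells. A list of 8 astrocyte markers summed to 12057 to 13560 CPM in Astrocyte, 7990 to 8696 CPM in Neuron, 2362 to 2639 CPM in Oligodendrocyte and 1536 to 1598 CPM in NSC. Gfap carries much of that sum, with a mean of 7631 CPM in Astrocyte and 2647 CPM in Neuron. Of the 8 astrocyte markers, 6 were called lower in Astrocyte than in Neuron and 2 higher, among them Slc1a2 at 269.6 against 869.6 CPM and S100b at 16.6 against 41.2 CPM, so the sum and most of the genes go opposite ways. A list of 9 oligodendrocyte lineage markers summed to 3221 to 3555 CPM in Neuron and 2924 to 3306 CPM in Oligodendrocyte, against 743 to 885 CPM in Astrocyte and 1146 to 1201 CPM in NSC. Of 8 neuron markers 7 were found, and Map2 was not matched by its symbol. Those 7 summed to no more than 226 CPM in any library, less than the astrocyte and oligodendrocyte lineage lists in the Neuron cultures. These sums leave out Map2 and are not adjusted for gene length. Summed microglia markers did not exceed 1.32 CPM. In such bulk cultures fewer cells of a type and less RNA per cell cannot be told apart.

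The Hedgehog genes did not move as a block when stem cells were moved to a day 4 medium. Boc rose and Gas1, Cdon and Gli3 fell in all 3 media, while Smo and Hhip moved in opposite directions in different media. Against NSC, limma called 7 of the 8 tested genes in Astrocyte, 7 in Neuron and 8 in Oligodendrocyte. Among all genes tested the called share was 83.6%, 83.1% and 80.2% in the same order, so the count of Hedgehog genes was near the background. In Astrocyte 3 of the 8 were higher and 4 lower, where 48% and 35.6% of all genes were. In Neuron 3 were higher and 4 lower (43.5% and 39.6% of all genes), and in Oligodendrocyte 5 were higher and 3 lower (48.1% and 32.2%). With median-of-ratios scaling, which moves the all-gene median from 0.15 to -0.0073 in Astrocyte and from 0.19 to 0.0013 in Oligodendrocyte, the split was 3 higher and 5 lower in Astrocyte and 3 and 3 in Oligodendrocyte. The libraries of the medium and of NSC did not overlap for 7 genes in Astrocyte, 7 in Neuron and 8 in Oligodendrocyte, beside 86.2%, 83.2% and 89.3% of all genes. Changes of at least 2-fold were called for 3 Hedgehog genes in Astrocyte, 4 in Neuron and 3 in Oligodendrocyte, where the background was 33.7%, 31.8% and 32%. The median log2 fold change of the 8 genes was -0.51 in Astrocyte, -0.03 in Neuron and 0.31 in Oligodendrocyte, beside 0.15, 0.06 and 0.19 for all genes tested. The 3 comparisons share the NSC libraries.

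**Figure D1:**
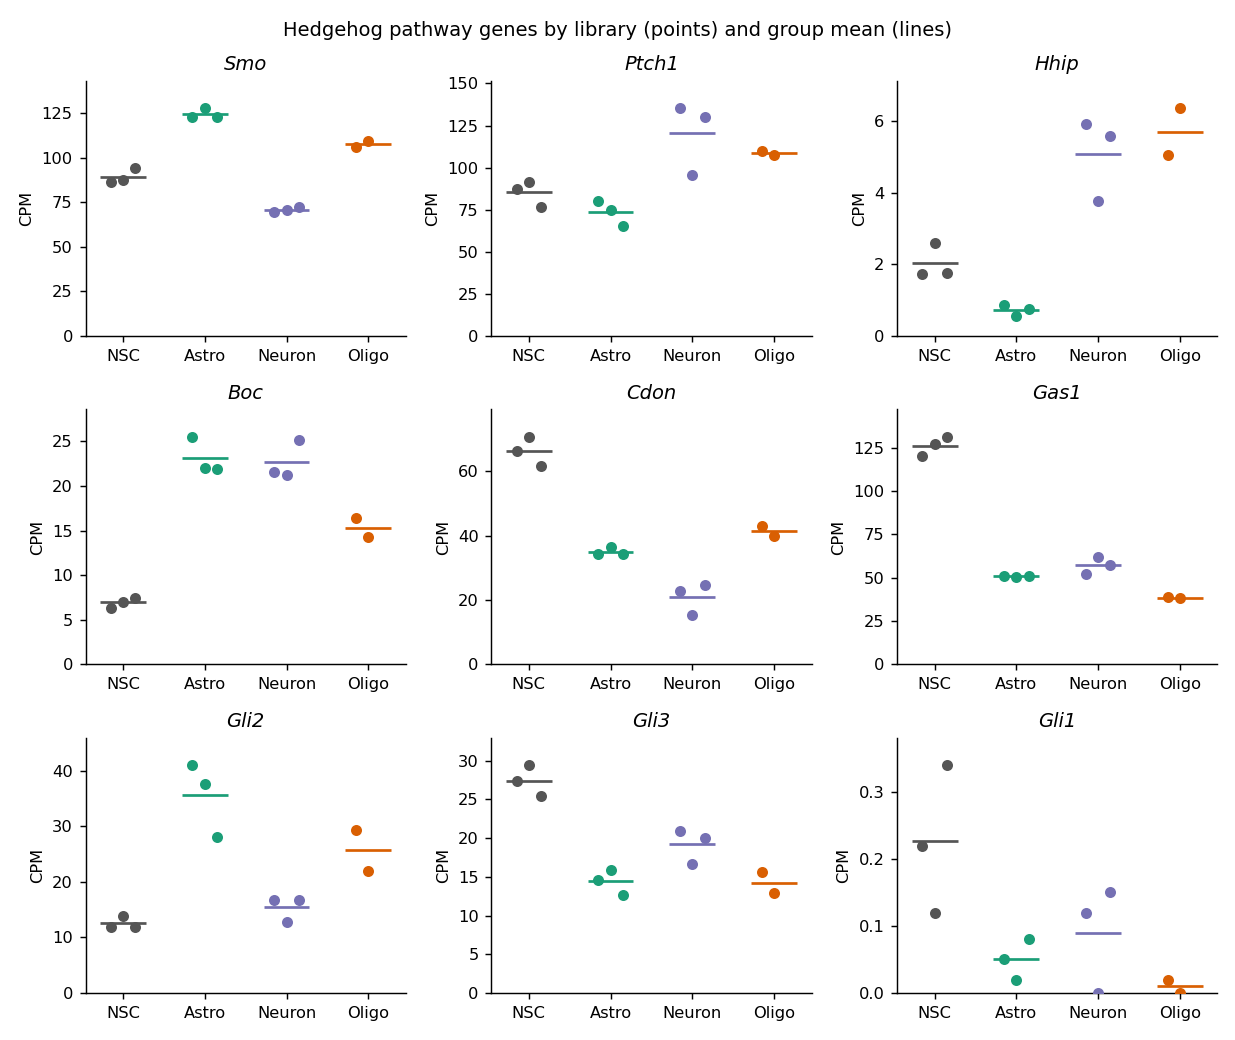
CPM of each Hedgehog gene (one panel per gene, vertical axis from 0) in the 11 libraries (points) and the group means (lines). Boc lies at 6.35 to 7.50 CPM in NSC and at or above 14.28 CPM in every day 4 library, Gas1 lies at or above 120.56 CPM in NSC and at or below 61.77 CPM at day 4, and Smo is lowest in Neuron and highest in Astrocyte.

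**Figure D2:**
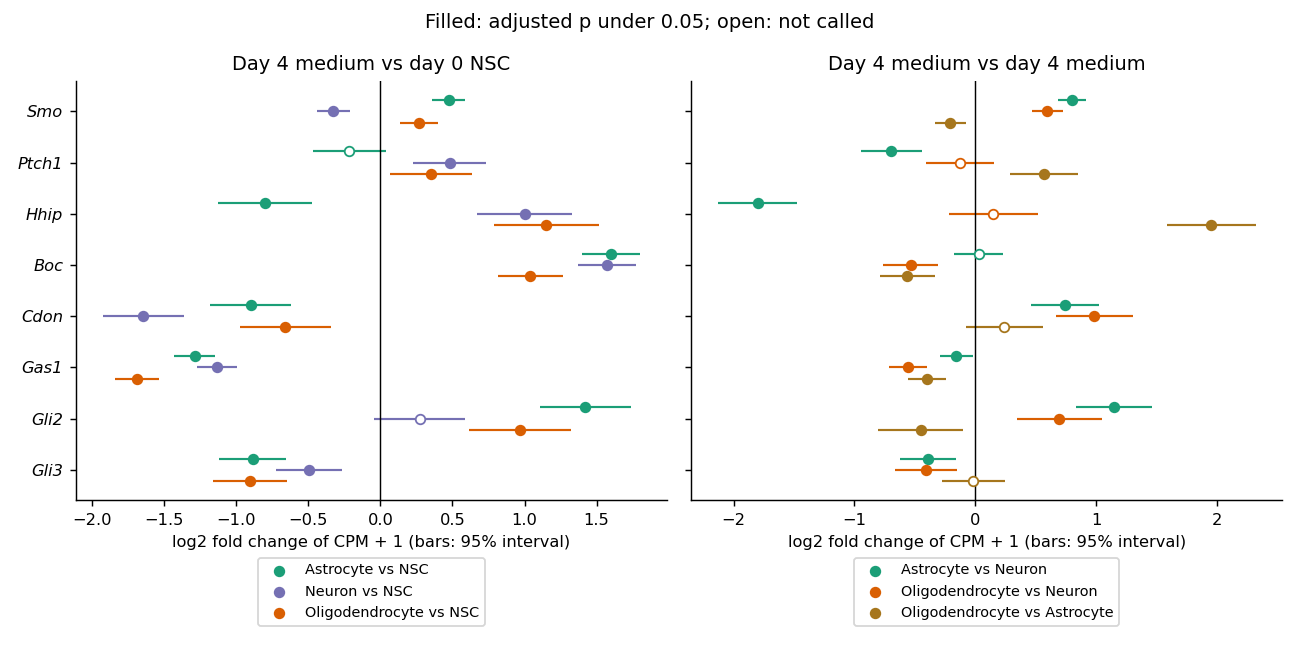
Log2 fold change of CPM + 1 for the 8 tested Hedgehog genes (points) with 95% intervals (bars), for each day 4 medium against NSC (left) and between media (right); filled points are called at an adjusted p under 0.05. Smo and Hhip have points on both sides of 0 in the left panel, while Boc, Gas1, Cdon and Gli3 each stay on one side.

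The ligands were scarce, apart from Dhh (Desert hedgehog) in the stem cells. Dhh read 10.7, 10.9 and 12.2 CPM in NSC, 0.81, 0.51 and 0.52 CPM in Astrocyte, 0.39, 0.32 and 0.08 CPM in Neuron and 0.92 and 0.44 CPM in Oligodendrocyte. Every NSC library was more than 10 CPM and every day 4 library under 1 CPM. On the log2(CPM + 1) scale, which understates changes of such low values, Dhh fell, with changes of -2.93 in Astrocyte (adjusted p = 7.24e-11), -3.28 in Neuron (adjusted p = 2.47e-11) and -2.88 in Oligodendrocyte (adjusted p = 3.8e-10). Shh (Sonic hedgehog) was under the level for testing at 0.47 to 0.61 CPM in NSC, 0.05 to 0.10 CPM in Astrocyte, 0.37 to 0.45 CPM in Neuron and 0.26 to 0.36 CPM in Oligodendrocyte. Its Astrocyte values lay under those of all the other libraries. Ihh (Indian hedgehog) did not exceed 0.12 CPM, and 3 reads were worth 0.0453 to 0.0609 CPM. Of the genes for making and releasing ligand, Hhat, which attaches palmitate to the ligand, lay at 0.67 to 1.88 CPM and Scube2 reached at most 0.24 CPM. Disp1 is in the table only on an unplaced scaffold, where it is listed at 0, which does not measure the gene.

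Ptch1, the receptor that is also a target gene, was highest in the Neuron and Oligodendrocyte media. It read 87.6, 91.6 and 76.8 CPM in NSC, 79.95, 74.8 and 65.4 CPM in Astrocyte, 135, 95.9 and 130.1 CPM in Neuron and 110.2 and 107 CPM in Oligodendrocyte. Neuron and Oligodendrocyte libraries were all above NSC, while Astrocyte and NSC overlapped. In Neuron Ptch1 rose by 0.48 on the log2 scale (SE 0.117, adjusted p = 0.00177). In Oligodendrocyte the log2 fold change was 0.35 (SE 0.130, adjusted p = 0.0242). This call was lost without NSC replicate 3 (0.28, adjusted p = 0.0914) and with no filter on low values (adjusted p = 0.0633). It was also lost with median-of-ratios scaling (0.14, adjusted p = 0.308). The adjusted p ranged from 0.000303 to 0.308 over 20 alternatives. Without Oligodendrocyte replicate 1 or 2, which leaves 1 library in that group, the change was 0.33 or 0.37. The Astrocyte difference of -0.22 (95% interval -0.47 to 0.04, adjusted p = 0.101) was not called, but it was without Neuron replicate 2 (adjusted p = 0.0111) and with median-of-ratios scaling (-0.39, adjusted p = 0.00408), over a range of 0.00408 to 0.329. Between media, Ptch1 gave -0.70 for Astrocyte against Neuron (adjusted p = 0.000167) and 0.57 for Oligodendrocyte against Astrocyte (adjusted p = 0.00262). Oligodendrocyte against Neuron gave -0.13 (95% interval -0.41 to 0.15, adjusted p = 0.397), which without Neuron replicate 2 became -0.28 (adjusted p = 0.00955, range 0.00955 to 0.814).

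Hhip, the decoy that binds ligand at the cell surface, was low in level and was lower in the Astrocyte medium than in the other media. Its values were 1.72, 2.60 and 1.77 CPM in NSC, 0.87, 0.56 and 0.76 CPM in Astrocyte, 5.93, 3.77 and 5.58 CPM in Neuron and 5.05 and 6.36 CPM in Oligodendrocyte. All Astrocyte libraries lay under NSC, and all Neuron and Oligodendrocyte libraries lay over it. Hhip fell by 0.80 log2 units in Astrocyte (SE 0.152, adjusted p = 0.000239) and rose by 1.00 in Neuron (SE 0.152, adjusted p = 3.19e-05) and 1.15 in Oligodendrocyte (SE 0.169, adjusted p = 2.69e-05). Directly compared, Astrocyte against Neuron gave -1.80 on the log2 scale (SE 0.152, adjusted p = 2.99e-07). Hhip in Oligodendrocyte exceeded that in Astrocyte by 1.95 (SE 0.169, adjusted p = 6.64e-07). The size of these low values depends on the pseudocount: with 0.1 and 5 in place of 1, Astrocyte against Neuron gave -2.64 and -0.81, Oligodendrocyte against Astrocyte 2.82 and 0.90, Astrocyte against NSC -1.35 and -0.29, Neuron against NSC 1.28 and 0.52, and Oligodendrocyte against NSC 1.46 and 0.61, all called. With quantile normalization the changes against NSC were -1.44 in Astrocyte and 0.51 in Oligodendrocyte. Oligodendrocyte and Neuron overlapped, at 0.15 (95% interval -0.22 to 0.52, adjusted p = 0.448). The summed oligodendrocyte lineage markers given above were likewise highest in Neuron and Oligodendrocyte and lowest in Astrocyte, and 8 of those 9 markers were called lower in Astrocyte than in Neuron, where 22% of all genes were. Their part in the Hhip and Ptch1 differences was not tested.

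Stretches just upstream of a single RefSeq start of Ptch1 and of Hhip are shown. Both genes are classical GLI targets and both were highest in Neuron and Oligodendrocyte. Each stretch is the 250 bases before that start (build GRCm38.p6), on the gene's own strand. They lie at chr13:63565736-63565985 (minus strand) for Ptch1 and chr8:80058009-80058258 (minus strand) for Hhip. The start used need not be the outermost one of the gene, and other starts were not searched. Capitals mark GC boxes (GGGCGG or its reverse complement CCGCCC), a motif chosen after the data were seen.
Ptch1: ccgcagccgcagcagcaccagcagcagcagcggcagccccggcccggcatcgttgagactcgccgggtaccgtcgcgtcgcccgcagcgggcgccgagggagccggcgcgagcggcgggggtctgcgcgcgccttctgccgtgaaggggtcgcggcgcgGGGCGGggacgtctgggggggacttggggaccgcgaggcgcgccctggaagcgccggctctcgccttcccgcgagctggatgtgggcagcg
Hhip: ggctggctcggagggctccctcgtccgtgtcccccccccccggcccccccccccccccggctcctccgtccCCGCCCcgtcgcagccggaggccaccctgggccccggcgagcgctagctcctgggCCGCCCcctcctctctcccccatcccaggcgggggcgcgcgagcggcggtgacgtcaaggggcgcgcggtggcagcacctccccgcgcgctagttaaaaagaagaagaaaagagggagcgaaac
A GLI motif (TGGGTGGTC, either strand) was present in 0.225% of the 32851 windows of this length and in none of the 7 Hedgehog genes with a window (Gli1 and Boc had no entry). Its core TGGGTGG, which lies within the longer motif, was present in 8.11% of all windows and likewise in none of the 7. With shares this low, finding none in 7 short windows says little about these genes. GC boxes were present in 5 of the 7 (Gli2, Gli3, Ptch1, Hhip and Gas1) and in 32.7% of all windows. The Ptch1 window had a GC content of 78.4% and the Hhip window of 76.0%, beside a median of 52.4% over all windows. Such matches describe the letters and are not binding sites.

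Among the co-receptors, Boc rose in all 3 media while Cdon and Gas1 fell in all 3. Boc read 6.35, 7.02 and 7.50 CPM in NSC, 25.5, 22.1 and 21.9 CPM in Astrocyte, 21.6, 21.3 and 25.2 CPM in Neuron and 16.4 and 14.3 CPM in Oligodendrocyte. No NSC library came near a day 4 library, and Oligodendrocyte lay between NSC and the other media. The log2 fold changes against NSC were 1.60 in Astrocyte (SE 0.093, adjusted p = 1.47e-09), 1.57 in Neuron (adjusted p = 1.94e-09) and 1.04 in Oligodendrocyte (adjusted p = 5.99e-07). Oligodendrocyte was under Neuron (-0.53, adjusted p = 0.000523) and under Astrocyte (-0.56, adjusted p = 0.000548), while Astrocyte and Neuron overlapped at 0.03 (95% interval -0.17 to 0.23, adjusted p = 0.806).

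Cdon, the relative of Boc, fell most in the Neuron medium. Its values were 66.2, 70.8 and 61.7 CPM in NSC, 34.2, 36.6 and 34.2 CPM in Astrocyte, 22.9, 15.2 and 24.6 CPM in Neuron and 43.1 and 39.9 CPM in Oligodendrocyte. The 4 groups did not overlap. Against NSC Cdon fell, with log2 fold changes of -0.90 in Astrocyte (SE 0.131, adjusted p = 2.08e-05), -1.64 in Neuron (SE 0.131, adjusted p = 4.25e-08) and -0.66 in Oligodendrocyte (SE 0.146, adjusted p = 0.000934). Neuron was under Astrocyte (Astrocyte against Neuron 0.74, adjusted p = 0.000243) and under Oligodendrocyte (Oligodendrocyte against Neuron 0.98, adjusted p = 5.2e-05). Oligodendrocyte against Astrocyte gave 0.24 (95% interval -0.07 to 0.56, adjusted p = 0.184), which was called without Neuron replicate 2 (adjusted p = 0.00733, range over the alternatives 0.00733 to 0.469).

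Gas1, a co-receptor anchored to the outer membrane and first known from growth arrest, had the largest fall in Oligodendrocyte of the 8 genes. It read 121, 127 and 131 CPM in NSC, 51.3, 50.7 and 51.2 CPM in Astrocyte, 52.3, 61.8 and 57.4 CPM in Neuron and 38.8 and 38.2 CPM in Oligodendrocyte. NSC was above every day 4 library and Oligodendrocyte below every other. Gas1 fell in all 3 media, by a log2 fold change of -1.29 in Astrocyte (SE 0.064, adjusted p = 2.72e-10), -1.13 in Neuron (adjusted p = 1.19e-09) and -1.69 in Oligodendrocyte (SE 0.072, adjusted p = 7.19e-11). Oligodendrocyte was below Neuron (-0.56, adjusted p = 1.51e-05) and below Astrocyte (-0.40, adjusted p = 0.000428). The Astrocyte and Neuron difference of -0.16 had an adjusted p of 0.0491. Without Neuron replicate 2 it was -0.099 (adjusted p = 0.153). The call was lost in 10 of the 11 fits that left out a library (adjusted p 0.0529 to 0.153, all but the one without Neuron replicate 1). The range for all alternatives was 0.00504 to 0.153.

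Among the further receptors listed, Lrp2, an endocytic receptor for Sonic hedgehog in the ventral forebrain, moved with the medium. It averaged 15.5 ± 2.36 CPM in NSC (SD, n = 3), 54.7 ± 4.84 CPM in Astrocyte (n = 3), 13.9 ± 3.60 CPM in Neuron (n = 3) and 68.9 ± 1.14 CPM in Oligodendrocyte (n = 2). Against NSC it rose by 1.76 in Astrocyte (adjusted p = 1.1e-07) and 2.09 in Oligodendrocyte (adjusted p = 7.18e-08), while Neuron gave -0.18 (adjusted p = 0.300). Between the Neuron medium and the same medium with T3 the log2 fold change of Lrp2 was 2.26 (SE 0.171, adjusted p = 1.01e-07).

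Smo, the signal transducer held back by PTCH1, rose in Astrocyte and fell in Neuron. Its values were 86.5, 87.3 and 94.2 CPM in NSC, 123, 128 and 123 CPM in Astrocyte, 69.5, 70.9 and 72.4 CPM in Neuron and 106 and 109 CPM in Oligodendrocyte. The 4 groups were separate, in the order Astrocyte, Oligodendrocyte, NSC and Neuron. Smo rose by 0.47 log2 units in Astrocyte (SE 0.054, adjusted p = 1.68e-06) and fell by 0.33 in Neuron (SE 0.054, adjusted p = 6.61e-05). The Astrocyte change was 0.30 with median-of-ratios scaling and still called. The Oligodendrocyte change against NSC was 0.27 (SE 0.060, adjusted p = 0.000983), which with median-of-ratios scaling was 0.05 and not called (adjusted p = 0.426, range 0.000336 to 0.426). Smo was above its Neuron level both in Astrocyte (0.80, SE 0.054, adjusted p = 3.53e-08) and in Oligodendrocyte (0.60, adjusted p = 1.43e-06). Oligodendrocyte was under Astrocyte (-0.21, adjusted p = 0.0111), a call lost without Oligodendrocyte replicate 1 (-0.19, adjusted p = 0.0802, range 0.00101 to 0.0802).

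In Astrocyte and Oligodendrocyte Gli2, the main activator, rose while Gli3, the main repressor, fell. Gli2 read 11.8, 13.9 and 11.9 CPM in NSC, 41.0, 37.6 and 28.1 CPM in Astrocyte, 16.8, 12.8 and 16.7 CPM in Neuron and 29.4 and 21.96 CPM in Oligodendrocyte. Astrocyte and Oligodendrocyte lay above NSC in every library, while Neuron overlapped it. Gli2 rose by 1.42 log2 units in Astrocyte (SE 0.146, adjusted p = 6.37e-07) and 0.97 in Oligodendrocyte (SE 0.163, adjusted p = 9.43e-05). In Neuron the difference of 0.27 (95% interval -0.04 to 0.59, adjusted p = 0.0971) was not called, but without Neuron replicate 2 it was 0.39 (adjusted p = 0.0119, range 0.0119 to 0.249). Against Neuron, Gli2 was higher in Astrocyte (1.15, adjusted p = 1.47e-05) and in Oligodendrocyte (0.69, adjusted p = 0.00206). Oligodendrocyte against Astrocyte gave -0.45 (adjusted p = 0.0331) with overlapping libraries. That call was lost without Astrocyte replicate 1 (adjusted p = 0.116) or 2 (adjusted p = 0.0948) and with no filter on low values (adjusted p = 0.0872). Without Oligodendrocyte replicate 2, which leaves 1 library in that group, the difference shrank to -0.25.

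Gli3 was highest in NSC, with values of 27.4, 29.4 and 25.4 CPM. It read 14.6, 15.9 and 12.7 CPM in Astrocyte, 20.96, 16.7 and 20 CPM in Neuron and 15.6 and 12.9 CPM in Oligodendrocyte. Every day 4 library was under every NSC library, and Neuron was above the other media. Its log2 fold changes against NSC were -0.89 in Astrocyte (SE 0.107, adjusted p = 3.23e-06), -0.50 in Neuron (SE 0.107, adjusted p = 0.000695) and -0.90 in Oligodendrocyte (SE 0.119, adjusted p = 9.41e-06). Against Neuron it was lower in Astrocyte (-0.39, adjusted p = 0.00601) and in Oligodendrocyte (-0.41, adjusted p = 0.00843), the latter lost without Oligodendrocyte replicate 2 (-0.28, adjusted p = 0.123, range 0.000601 to 0.123). With quantile normalization these were -0.59 and -0.63. Oligodendrocyte and Astrocyte overlapped, at -0.02 (95% interval -0.27 to 0.24, adjusted p = 0.921).

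Within each library the ratio of Gli2 to Gli3, as a log2 ratio of CPM + 1, put these movements together. It was -1.15, -1.03 and -1.03 in NSC, -0.30, -0.36 and -0.25 in Neuron, 0.87 and 0.73 in Oligodendrocyte and 1.43, 1.19 and 1.09 in Astrocyte. The groups did not overlap and followed that order. The ratio of Ptch1 to Smo was 0.02, 0.07 and -0.29 in NSC, -0.61, -0.76 and -0.90 in Astrocyte, 0.05 and -0.02 in Oligodendrocyte and 0.95, 0.43 and 0.84 in Neuron. Neuron was thus above and Astrocyte below all other libraries, and NSC and Oligodendrocyte overlapped. The ratio of Boc to Cdon, chosen after its values were seen, was -3.19, -3.16 and -2.88 in NSC and -1.42 or higher in every day 4 library. A ratio of 0 has no meaning of its own here, since genes differ in length.

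**Figure D3:**
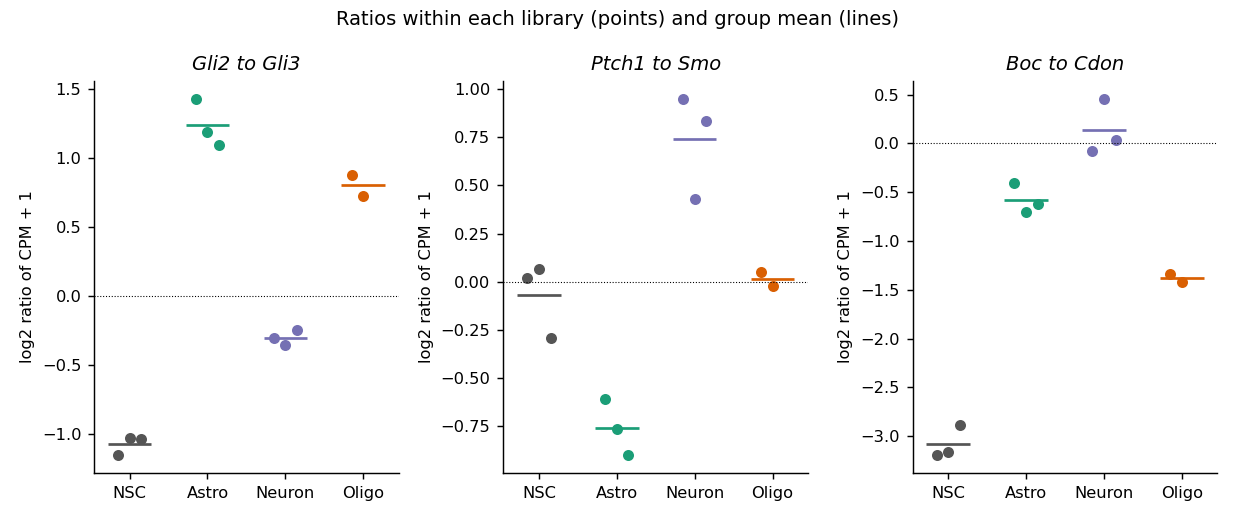
Log2 ratio of CPM + 1 for 3 pairs of Hedgehog genes (panels) in each library (points), with group means (lines). Gli2 to Gli3 goes from -1.15 to -1.03 in NSC up to 1.09 to 1.43 in Astrocyte, and Ptch1 to Smo is highest in Neuron and lowest in Astrocyte.

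Gli1, the transcription factor most used as a readout of pathway activity, was near the limit of detection. It read 0.22, 0.12 and 0.34 CPM in NSC, 0.05, 0.02 and 0.08 CPM in Astrocyte, 0.12, 0 and 0.15 CPM in Neuron and 0.02 and 0 CPM in Oligodendrocyte. All NSC libraries lay above the Astrocyte and Oligodendrocyte libraries, and Neuron overlapped NSC. These values correspond to an estimated 40 reads over the 3 NSC libraries, 9 over Astrocyte, 15 over Neuron and 1 over Oligodendrocyte. As pooled levels with exact 95% Poisson intervals, which cover counting error only, this is 0.227 CPM (0.162 to 0.310) in NSC, 0.048 CPM (0.022 to 0.0912) in Astrocyte, 0.0915 CPM (0.0512 to 0.151) in Neuron and 0.0078 CPM (0.0002 to 0.0437) in Oligodendrocyte. With no filter on low values, the log2(CPM + 1) difference of Gli1 from NSC was -0.22 in Astrocyte (adjusted p = 0.0153), -0.17 in Neuron (adjusted p = 0.0524) and -0.28 in Oligodendrocyte (adjusted p = 0.00892). Between day 4 media that fit called no Gli1 difference, with adjusted p of 0.607 for Astrocyte against Neuron, 0.297 for Oligodendrocyte against Neuron and 0.650 for Oligodendrocyte against Astrocyte. The log2(CPM + 1) scale compresses values this low. The counting intervals of Neuron and Oligodendrocyte above do not overlap, but they leave out the spread between libraries. The single libraries of Neuron and Oligodendrocyte do overlap.

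Levels of different genes were compared per kilobase of exon (all annotated exons of a gene joined, GENCODE vM21), as CPM per kb. The annotation release used for counting is not given, so these lengths may differ from those of the counted exons. In NSC the order was Gas1 (42.7), Smo (15.9), Cdon (8.58), Ptch1 (6.01), Gli3 (2.86), Gli2 (1.82), Boc (1.56), Hhip (0.224) and Gli1 (0.0454). Gas1 and Smo took the first places in every group, with Smo first in Astrocyte (22.1 against 17.2 CPM per kb for Gas1) and Oligodendrocyte (19.2 against 13.0) and Gas1 first in Neuron (19.3 against 12.6 for Smo). Boc, Gli2 and Ptch1 lay close together in Astrocyte at 5.20, 5.17 and 5.17 CPM per kb, which was within their spread. Hhip and Gli1 were the lowest in every group. Ptch1 has long alternative exons, and its joined length of 14185 bases lowers its value.

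**Figure D4:**
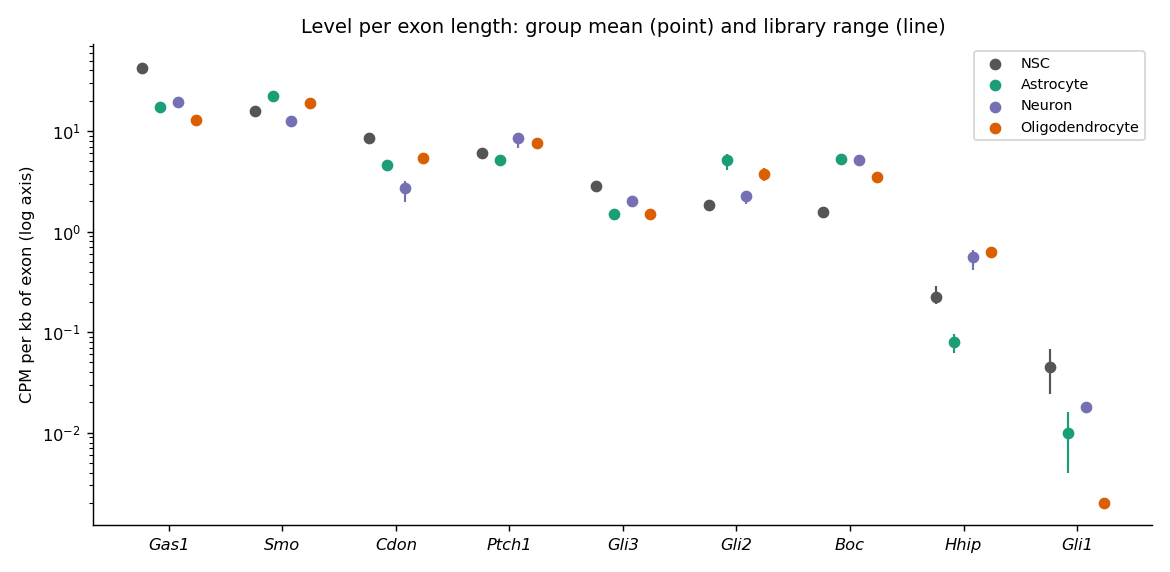
Level per exon length in CPM per kb (log axis) for the 9 Hedgehog genes, as group means (points) with the range over libraries (lines). Gas1 and Smo are highest and Hhip and Gli1 lowest in all 4 groups.

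Media compared with each other gave calls for 7 of the 8 Hedgehog genes in Astrocyte against Neuron, 6 in Oligodendrocyte against Neuron and 6 in Oligodendrocyte against Astrocyte. The background shares were 62.2%, 67.5% and 52.2%. By direction, 3 were higher and 4 lower in Astrocyte against Neuron (40.3% and 22% of all genes), 3 and 3 in Oligodendrocyte against Neuron (43.9% and 23.6%), and 2 and 4 in Oligodendrocyte against Astrocyte (28.7% and 23.5%). The libraries did not overlap for 7, 6 and 6 genes in the same order, beside 63%, 75.7% and 71.7% of all genes. Differences of at least 2-fold were Gli2 (1.15) and Hhip (-1.80) in Astrocyte against Neuron and Hhip (1.95) in Oligodendrocyte against Astrocyte, where 9.34% and 7.94% of all genes were called at that size. In Oligodendrocyte against Neuron, with a background of 12.5%, the largest difference was that of Cdon. With T3 as the only labelled difference, that comparison had Cdon (0.98), Gli2 (0.69) and Smo (0.60) called higher and Gas1 (-0.56), Boc (-0.53) and Gli3 (-0.41) called lower. The median over the 8 genes was 0.01 there, beside 0.15 for all genes.

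Downstream of SMO, 9 regulators of GLI proteins were tested. Against NSC, 4 were called higher and 2 lower in Astrocyte, where 48% and 35.6% of all genes were, 3 and 3 in Neuron (43.5% and 39.6%), and 3 and 3 in Oligodendrocyte (48.1% and 32.2%). Sufu, which binds GLI proteins and keeps them inactive, averaged 43.3 ± 0.199 CPM in NSC (SD, n = 3) and fell in all 3 media, with log2 fold changes of -0.43 in Astrocyte, -0.61 in Neuron and -0.77 in Oligodendrocyte. Spop, which targets GLI proteins for degradation, rose by 1.18, 0.63 and 1.25 in the same order, from 52.8 ± 1.49 CPM (n = 3). Cul3, the ubiquitin ligase scaffold that works with SPOP, fell by 0.54 log2 units in each medium, from a mean of 195.6 CPM to between 134 and 135 CPM. Stk36, a kinase related to fly Fused, rose from 4.55 ± 0.342 CPM (n = 3) by 2.27 in Astrocyte, 1.11 in Neuron and 1.63 in Oligodendrocyte. The list's median log2 fold change was -0.08 in Astrocyte, -0.04 in Neuron and 0.13 in Oligodendrocyte, beside all-gene medians of 0.15, 0.06 and 0.19.

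Protein kinase A marks GLI2 and GLI3 for processing, and 9 genes of this arm and of receptor trafficking gave 3 higher and 4 lower calls in Astrocyte (all genes 48% and 35.6%), 3 and 4 in Neuron (43.5% and 39.6%), and 2 and 4 in Oligodendrocyte (48.1% and 32.2%). Prkaca, a catalytic subunit of the kinase, fell from a mean of 138.8 CPM, with log2 fold changes of -0.73, -0.86 and -0.63 in Astrocyte, Neuron and Oligodendrocyte. Prkacb, another catalytic subunit, named after its values were seen, did not follow it. Its means were 129.9 CPM in NSC, 141.8 CPM in Astrocyte, 172.8 CPM in Neuron and 122.5 CPM in Oligodendrocyte. The arrestins, which help SMO reach the cilium, went opposite ways: Arrb1 rose by 1.21, 1.85 and 1.39 and Arrb2 fell (-0.53, -0.42 and -0.79) in the same order. Adcy5, an adenylyl cyclase, rose by 0.51, 1.25 and 1.39. The list medians were -0.19, 0.05 and -0.08, against 0.15, 0.06 and 0.19 over all genes.

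Genes of the primary cilium, where SMO acts, went both ways against NSC. Of 12 tested, 7 were called higher and 4 lower in Astrocyte (48% and 35.6% of all genes), 5 and 3 in Neuron (43.5% and 39.6%), and 6 and 4 in Oligodendrocyte (48.1% and 32.2%). Their medians were 0.73, -0.08 and 0.27, beside 0.15, 0.06 and 0.19 for all genes tested. Against Neuron, 9 of the 12 were called higher in Astrocyte, where 40.3% of all genes were. Ift88, a transport protein needed for cilia, rose by 0.90 in Astrocyte against NSC, and gave -0.12 (adjusted p = 0.280) in Neuron and 0.05 (adjusted p = 0.705) in Oligodendrocyte. Ift122, another transport protein, rose by 1.37, 0.73 and 1.21 in Astrocyte, Neuron and Oligodendrocyte, and Rpgrip1l of the ciliary transition zone by 1.23, 0.81 and 0.83. Kif3a, a motor subunit, rose by 0.76, 1.00 and 0.50. Named after their values were seen, Evc and Evc2, ciliary partners of SMO, fell in all 3 media (-0.28, -0.56 and -0.32 for Evc and -0.38, -0.84 and -0.39 for Evc2), as did Ofd1 (-0.35, -0.21 and -0.22). Arl13b, a ciliary GTPase, fell in Astrocyte (-0.40) and Oligodendrocyte (-0.63) and gave -0.08 in Neuron (adjusted p = 0.290).

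Of 14 further genes known as GLI targets in some tissue, 10 were tested, and those furthest down were genes of cell division. The calls against NSC were 3 higher and 6 lower in Astrocyte (48% and 35.6% of all genes), 4 and 6 in Neuron (43.5% and 39.6%), and 3 and 5 in Oligodendrocyte (48.1% and 32.2%). Their medians were -0.68, -0.54 and -0.53, where all genes had 0.15, 0.06 and 0.19. Ccnd1 (cyclin D1) fell from 1733 ± 42.9 CPM (SD, n = 3), with log2 fold changes of -6.37 in Astrocyte, -6.34 in Neuron and -5.16 in Oligodendrocyte. Foxm1, a factor of mitotic transcription, fell likewise (-4.03, -4.52 and -3.83), as did Ccnd2, cyclin D2 (-2.41, -3.40 and -3.14). Olig2, a factor of ventral progenitors and the oligodendrocyte lineage, also fell (-2.80, -1.43 and -1.66). Sfrp1 and Bcl2, named after their values were seen, went the other way in all 3 media. Sfrp1 averaged 10.2 CPM in NSC, 41.0 CPM in Astrocyte, 21.9 CPM in Neuron and 30.5 CPM in Oligodendrocyte. Bcl2 averaged 27.6, 39.2, 43.6 and 50.5 CPM in those groups. Nkx6-1 was listed at 0 in every library.

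**Figure D5:**
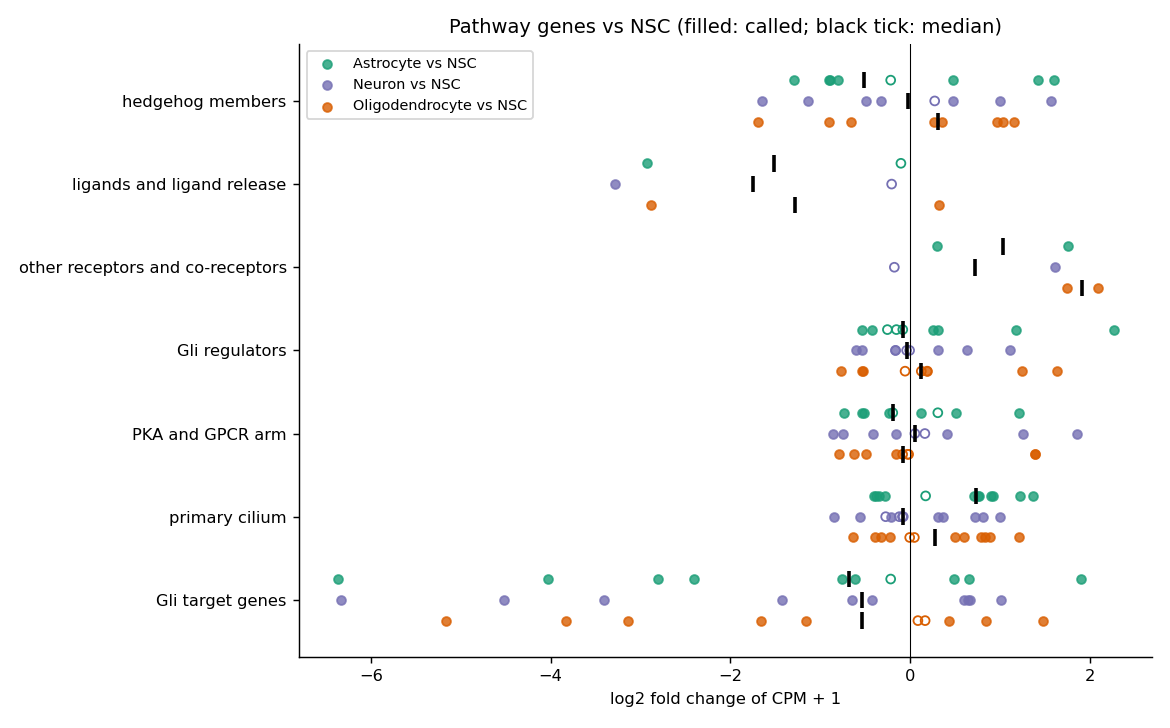
Log2 fold change of CPM + 1 against NSC for the tested genes of 7 Hedgehog pathway lists (rows), one point per gene and medium, filled where called, with the list median as a black tick. The regulators, kinase A and cilium lists spread on both sides of 0, and the lowest points are Ccnd1 and Foxm1 among the GLI targets.

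The genes most like each Hedgehog gene over the 11 libraries were taken by Pearson correlation of log2(CPM + 1) among 10307 genes with a group mean of at least 10 CPM. The libraries share 4 groups, so r mainly follows the group means and is given as a description. Among the closest were Pcgf2 (0.996) and Arhgef10l (0.994) for Boc, Tead2 (0.996) and Smc1a (0.995) for Gas1, Diap1 (0.992) and BC026590 (0.989) for Cdon, and 1500015O10Rik (0.991) for Smo. For Gli2 they were Setd7 (0.982) and Usp19 (0.981), for Gli3 Scaf11 (0.983) and Pum2 (0.978), for Ptch1 Tub (0.969), and for Hhip Wipf1 (0.979) and Wasf1 (0.977). Gli1, at its low level, gave Wdr91 (0.917) and Armc6 (0.904). Hhip and Gli1 were under that 10 CPM level and could not be drawn as another gene's closest, and r between Ptch1 and Hhip was 0.917.

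In the build of the deposited table (mm9) Gli1 (ENSMUSG00000025407) lies at chr10:126766945-126778645, Gli2 (ENSMUSG00000048402) at chr1:120730709-120950196, Gli3 (ENSMUSG00000021318) at chr13:15555068-15821859, Ptch1 (ENSMUSG00000021466) at chr13:63610261-63674474 and Smo (ENSMUSG00000001761) at chr6:29685694-29711365. Hhip (ENSMUSG00000064325) lies at chr8:82490014-82581905, Boc (ENSMUSG00000022687) at chr16:44485158-44559010, Cdon (ENSMUSG00000038119) at chr9:35228713-35315236 and Gas1 (ENSMUSG00000052957) at chr13:60275766-60278726. Genes overlapping Gli1, Smo, Boc or Cdon did not exceed 0.68 CPM. Arhgap9, on the strand opposite to Gli1, reached 0.05 CPM, and reads of the pair cannot be told apart unless the counting used strand.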

How the data were processed

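The libraries were poly(A)-selected and strand-specific (Illumina TruSeq Stranded mRNA, HiSeq), per the labels' protocols. The authors deposited CPM values for 37991 genes and 11 libraries in mouse build mm9 (NCBIM37), rounded to 2 decimals, per the file headers. The submitters' processing notes name bcl2fastq 1.8.4, TopHat2 2.0.8, HTSeq 0.6.1 and edgeR 3.2.4. Neither the annotation release nor whether counting used strand is given in the sources used here.

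Values were tested as log2(CPM + 1) with limma 3.58.1 in R 4.3.3: 13342 genes (1 CPM or more in 2 or more libraries), 1 mean per group over all 11 libraries, eBayes with trend, two-sided, p-values adjusted by the Benjamini-Hochberg method over all genes within each of 6 comparisons, called under 0.05. The labels do not tie each library to its own culture or animal beyond naming replicates, so p-values measure the spread between these libraries. The code was tested on simulated data. Read numbers of low genes were estimated from the spacing of low CPM values. Listed genes summed to 74.95% to 80.25% of the CPM scale's full total per library. This share differed by group, at 74.95% to 76.94% in NSC and 76.11% to 78.01% in Neuron. It was 79.72% to 80.01% in Astrocyte and 80.07% to 80.25% in Oligodendrocyte. Its part in small differences between groups was not tested separately.

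The Hedgehog genes and the other lists were chosen with earlier results of these data known. Named were all 9 Hedgehog genes, up to 4 called genes of each pathway list with the largest change and at least 5 CPM in a group, the ligands at any level, and the 2 genes most correlated with each Hedgehog gene. Some genes that this rule takes are not reported here. Sequences are from RefSeq (GRCm38.p6). Alternatives changed the pseudocount, filter, scaling, variance prior, groups fitted, replicate block or libraries.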

Additional observations from a re-analysis of the deposited data

Results flagged for a closer look

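Results are given here where a gene was called in opposite directions against NSC in 2 media and the direct comparison of those media was also called by limma. Both comparisons against NSC share the NSC libraries.

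Smo rose in Astrocyte (log2 fold change 0.47) and fell in Neuron (-0.33), and Astrocyte against Neuron gave 0.80 (adjusted p = 3.53e-08), with all 3 Astrocyte libraries above all 3 Neuron libraries. In Oligodendrocyte Smo was called higher than NSC (0.27), and Oligodendrocyte against Neuron gave 0.60 (adjusted p = 1.43e-06). The call against NSC was lost with median-of-ratios scaling, where the value was 0.05.

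Hhip fell in Astrocyte (-0.80) and rose in Neuron (1.00), and Astrocyte against Neuron gave -1.80 (adjusted p = 2.99e-07). In Oligodendrocyte Hhip rose by 1.15, and Oligodendrocyte against Astrocyte gave 1.95 (adjusted p = 6.64e-07).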

How the results depend on the processing

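Of the 48 results for single Hedgehog genes with a test, 35 kept their direction and their side of the threshold under all 20 alternatives, and 13 did not under at least 1. The counts of called Hedgehog genes stayed within 1.5 times their reported values under every alternative run. Counts at 2-fold moved more. In Astrocyte against NSC the count was 5 in place of 3 with median-of-ratios scaling and 5 with quantile normalization, 2 of them higher in each. With a pseudocount of 5 it was 1 in Oligodendrocyte against NSC, and 0 in both Astrocyte against Neuron and Oligodendrocyte against Astrocyte. In Oligodendrocyte against Neuron it was 1 with a pseudocount of 0.1, 1 with the replicate block, and 0 to 1 when a library was left out. Directions reversed only for differences that were not called. Boc in Astrocyte against Neuron became -0.071 with median-of-ratios scaling, -0.124 with quantile normalization and -0.040 to 0.102 when a library was left out, below 0 without Neuron replicate 1 (-0.0022), Neuron replicate 2 (-0.0135) or Astrocyte replicate 1. Hhip in Oligodendrocyte against Neuron became -0.079 with quantile normalization and -0.017 to 0.291 when a library was left out, below 0 without Neuron replicate 2. Gli3 in Oligodendrocyte against Astrocyte became -0.144 to 0.112 when a library was left out, above 0 without Astrocyte replicate 2 (0.054) or Oligodendrocyte replicate 2. The cause was not tested. Over 15 same-numbered pairs of libraries the correlation of deviations from the group means ran from -0.506 to 0.415 (median 0.035). Over 30 differently numbered pairs it ran from -0.536 to 0.541 (median -0.0072). In groups of 2 or 3 libraries such deviations are tied to each other, so this does not decide whether replicate numbers paired the libraries. The replicate block lost the Gas1 call in Astrocyte against Neuron (adjusted p = 0.0524). Gli1 and Shh lie under 1 CPM in every library, and the filter kept them from the test; 3 reads, worth 0.0453 to 0.0609 CPM, set the lowest level the depth resolves.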
